A study of Homo sapiens with 9 samples.

Results

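The heat shock genes described here are 10 human protein-coding genes: the small heat shock protein genes HSPB1, HSPB6, HSPB7, HSPB8 and CRYAB, the co-chaperone genes BAG3 and DNAJB1, the inducible HSP70 genes HSPA1A and HSPA1B, and HSF1, which encodes the transcription factor that drives the heat shock response. They were taken by symbol from a table of 70116 gene IDs, and each of the 10 was found under 1 ID. Of these, 7 passed the low-count filter that left 19408 genes for testing, and HSPA1A, HSPA1B and HSF1 did not, with 3 counts or fewer over all 9 libraries. The 10 genes were chosen by their role and with their levels in these libraries and the 3 differences between groups in view, so those values are given as a description, without p-values.

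The libraries were made from U2OS cells, a human osteosarcoma line, in 3 groups of 3. Wild-type cells received vehicle, wild-type cells received palbociclib for 4 days, and cells in which PERK had been knocked out with CRISPR/Cas9 received palbociclib for 4 days. Palbociclib inhibits the cyclin-dependent kinases CDK4 and CDK6 and stops the cell cycle before DNA replication, and the product of EIF2AK3, PERK, is an endoplasmic reticulum kinase that slows translation when unfolded protein builds up there. Knockout cells on vehicle were not analysed here, so a difference between knockout and wild-type cells on palbociclib cannot be told apart from one present before the drug. The labels do not say whether the knockout line is 1 clone, or whether the numbered sets 1 to 3 are separate cultures, so a p-value here reflects the variation among the libraries, which may be technical.

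Small heat shock proteins bind unfolding proteins without using ATP and hold them in a form that HSP70 can refold. HSP70 works with J-domain proteins such as DNAJB1, which deliver the client, and with nucleotide exchange factors of the BAG family, which release it. BAG3 also binds HSPB8, and the pair passes clients with HSP70 and the ubiquitin ligase STUB1 to autophagosomes, a route known as chaperone-assisted selective autophagy. In resting cells HSF1 is held inactive by chaperones, and on heat or proteotoxic stress it forms trimers that bind inverted repeats of GAA, the heat shock element, in front of its target genes. HSPB6, HSPB7, HSPB8 and CRYAB are best known from heart and skeletal muscle, where they protect the contractile apparatus.

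Heat shock elements were looked for because they are the sequence by which HSF1 targets are recognised. RefSeq promoter windows, from 250 bases before to 50 bases after an annotated start on GRCh38.p14, were matched for 8 of the 10 genes. No window was matched for CRYAB. HSF1 could not be matched, because its chromosome was left out of that step, so nothing is read from its lack of a window. The shortest form of the element, 2 GAA units in opposite directions, was searched as GAANNTTC and TTCNNGAA, each of which reads the same on both strands. Either form was present in 13.5% of 35116 such windows in the RefSeq table, with no chromosome left out. Of the 8 matched genes, 6 held either form in at least 1 window. That count is by gene and the share is by window, and DNAJB1 had 3 windows where the other matched genes had 1 each. The matches are printed 5′ to 3′ on the strand of the gene, with 10 bases on each side, and the capitals mark the element.
HSPB1 (chr7:76302481-76302508, plus strand): cttaacgagaGAAGGTTCcagatgaggg
HSPB6 (chr19:35757208-35757249, minus strand): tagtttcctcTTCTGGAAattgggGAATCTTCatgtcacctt
HSPB8 (chr12:119178833-119178860, plus strand): catcacctccGAATATTCctgtgacagg
HSPA1A (chr6:31815427-31815454, plus strand): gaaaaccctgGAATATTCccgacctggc
HSPA1B (chr6:31827623-31827650, plus strand): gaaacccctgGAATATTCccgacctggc
DNAJB1 (chr19:14518427-14518484, minus strand): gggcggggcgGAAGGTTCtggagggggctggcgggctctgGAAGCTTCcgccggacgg
The element began 182 bases before the RefSeq start in HSPB1, 88 in HSPB8, 106 in HSPA1A and 105 in HSPA1B. HSPB6 held both forms, at 210 and 196 bases before the start, and 1 of the 3 annotated starts of DNAJB1 had matches at 77 and 47 bases. Further matches lay just after a start in HSPB8 and in another window of DNAJB1. In GENCODE release 29 the windows of HSPB1, HSPA1A and HSPA1B lie in front of the gene, those of HSPB6 and DNAJB1 lie inside the gene outside its exons on that strand, and that of HSPB8 lies in the untranslated part of the first exon of a longer transcript. The windows of HSPB7 and BAG3 held neither form, which says only that these letters are not there.

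Total counts ran from 33674039 to 42577874 per library, and the genes tested held 99.915% of them. EIF2AK3, the targeted gene, stood at 33.1 ± 1.57 CPM on vehicle, 34.7 ± 2.64 in wild-type cells on palbociclib and 18.7 ± 0.971 in the knockout (SD, n = 3). Its mRNA in the knockout was lower than in wild-type cells on the drug by a log2 difference of -0.89 ± 0.07 (SE; edgeR quasi-likelihood test, adjusted p = 5.98e-09), and gene-level counts do not show the edited site. CPM are counts scaled to the size of the library, with edgeR's TMM factors, and all SDs are over the 3 libraries of a group.

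Per length, the 7 measured genes covered about 3 orders of magnitude. In vehicle-treated wild-type cells HSPB1 stood at 446 ± 42.9 RPKM (CPM divided by the kilobases of annotated exon), rank 38 of the 18347 genes that had a length. DNAJB1 followed at 48.1 ± 3.06 RPKM, CRYAB at 36.7 ± 1.91, BAG3 at 23.1 ± 1.43 and HSPB8 at 18.2 ± 2.38. HSPB7 at 0.905 ± 0.243 RPKM and HSPB6 at 0.423 ± 0.0503 were the least abundant. No neighbours in this order overlapped in vehicle-treated cells. On palbociclib HSPB8 stood above BAG3 in wild-type cells, at 34.0 ± 4.54 against 22.7 ± 1.01 RPKM, and CRYAB at 43.5 ± 3.47 overlapped DNAJB1 at 46.3 ± 0.682. In the knockout HSPB8 at 26.8 ± 2.35 RPKM overlapped BAG3 at 23.7 ± 0.724, and HSPB7 at 0.0925 ± 0.0125 stood last, behind HSPB6 at 0.227 ± 0.0446.

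**Figure D1:**
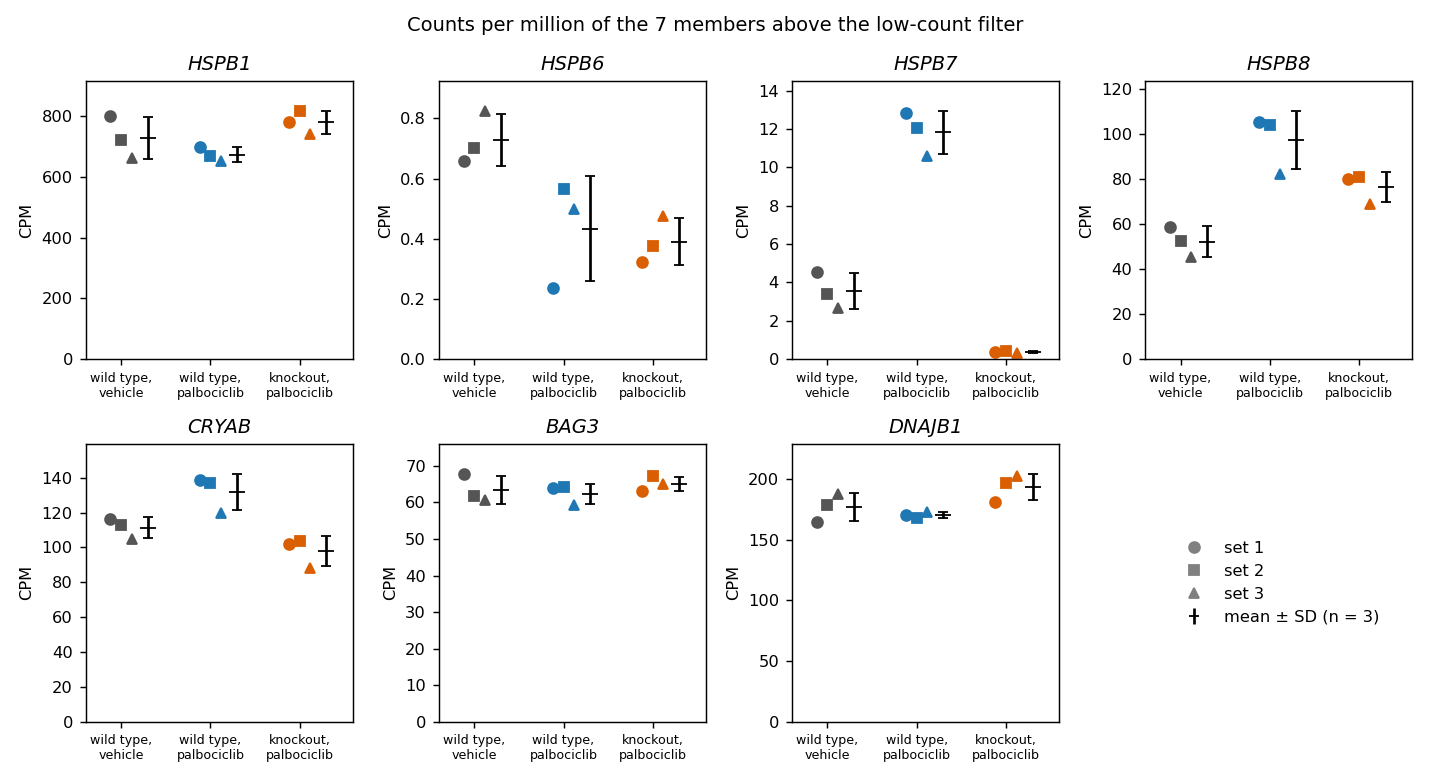
TMM-scaled CPM (vertical axes, each starting at 0) of the 7 genes above the low-count filter in wild-type cells on vehicle (grey), wild-type cells on palbociclib (blue) and PERK knockout cells on palbociclib (orange). Each point is 1 library, its shape gives the set number, and the black bar gives the mean ± SD of 3 libraries. HSPB7 in the knockout lies between 0.308 and 0.404 CPM, below every wild-type library.

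HSPB7 (ENSG00000173641.18, chr1:16014028-16019594, minus strand), a small heat shock protein of heart and skeletal muscle that binds filamin C, had the widest differences of the 7. On vehicle it stood at 4.55, 3.39 and 2.67 CPM in sets 1 to 3, from 180, 140 and 97 counts. On palbociclib wild-type cells had 12.81, 12.04 and 10.6 CPM, from 435, 447 and 403 counts. Knockout cells on palbociclib had 0.372, 0.404 and 0.308 CPM, from 15, 14 and 13 counts. The 3 groups did not overlap in any pair, and the knockout libraries lay below even the vehicle libraries. The wild-type level on palbociclib was 3.34 times that on vehicle (log2 difference 1.73 ± 0.15, SE). In the knockout 3.06% of the level of wild-type cells on palbociclib was left (log2 difference -5.03 ± 0.21), and 10.2% of that on vehicle (-3.29 ± 0.23). Among the 19408 genes tested the knockout difference on palbociclib was rank 27 from the lowest. With the median of the 92 genes tested within 5 Mb taken off, it was -4.91.

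The HSPB7 promoter window was read because this gene moved most. It held a 10-base palindrome of the kind bound by MEF2, a transcription factor of muscle, 82 bases before the RefSeq start. The motif was noticed on reading the window and then searched as CTANNNNTAG, a pattern that reads the same on both strands. It was present in 2.73% of the 35116 windows, 1 of DNAJB1 among them. N stands for any base, so this is the share of a wider pattern. The middle of the HSPB7 match holds only A and T, and that of DNAJB1, CTAGGACTAG, does not. The HSPB7 match is printed 5′ to 3′ with the motif in capitals, and in GENCODE release 29 it lies in the untranslated part of an exon of a longer transcript.
HSPB7 (chr1:16018106-16018135, minus strand): atggagaggcCTAAATTTAGctagtagaca
A match of these letters is not a measured binding site. Of 14 skeletal muscle marker genes, 5 reached 1 CPM, and the muscle-determining factors MYF5 and MYF6 were at 0 in all libraries with MYOD1 and MYOG under 0.1 CPM. The summed muscle list ran from 170.3 to 179.6 CPM on vehicle, 174.7 to 184.3 in wild-type cells on palbociclib and 182.7 to 194.8 in the knockout. TNNT1 made up most of that sum, at 164.9, 167.7 and 178.4 CPM on average. DES, a muscle intermediate filament, and MYH2, a fast myosin, were higher on palbociclib in wild-type cells by 0.70 and 0.64 on the log2 scale (edgeR adjusted p = 0.0129 and 0.00731), and both were at 1 to 3 CPM. Between knockout and wild-type cells on the drug they had -0.21 and -0.06 (edgeR adjusted p = 0.491 and 0.834). The other muscle genes tested did not pass on palbociclib in wild-type cells. MYH3 had -0.32 there (edgeR adjusted p = 0.0567), and TNNT1, MYH1 and TTN had 0.02, 0.21 and 0.18. The part of these genes in the values of HSPB7 was not tested. The sum of 10 cardiac genes, of which 5 reached 1 CPM and MYH6 and MYL7 stayed near 0, ran from 33.2 to 43.2, from 45.6 to 46.7 and from 31.0 to 35.3 CPM in the same order. That sum was highest in the group where HSPB7 was highest, and its part in the result was not tested. NPPB at 6.34, 12.4 and 7.30 CPM and MYL2 at 9.05, 11.7 and 5.05 were highest in that group. NKX2-5 was not, at 17.8, 17.6 and 16.4 CPM. NPPA was lower on palbociclib in wild-type cells, at 0.285 against 0.659 CPM (log2 difference -1.21, edgeR adjusted p = 0.00563). In bulk libraries fewer cells with a transcript and less of it per cell cannot be told apart.

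HSPB8 (ENSG00000152137.8, chr12:119178642-119221131, plus strand) encodes the partner of BAG3 in the clearance of unfolded proteins. It stood at 58.8, 52.3 and 45.2 CPM on vehicle in sets 1 to 3. Wild-type cells on palbociclib had 105.5, 104.1 and 82.4 CPM, and knockout cells on palbociclib had 80.0, 81.0 and 68.9 CPM. Both palbociclib groups lay above vehicle in every library, and the knockout libraries lay below all wild-type libraries on the drug. The log2 difference on palbociclib was 0.90 ± 0.13 in wild-type cells, a ratio of 1.87. The knockout differed from wild-type cells on the drug by -0.35 ± 0.12 and from vehicle by 0.55 ± 0.13. The first of these did not pass the 0.05 threshold in the edgeR fit used throughout, and passed in 6 of 16 alternatives. These were the set number as a block, no low-count filter, a filter at a mean of 1 CPM, limma-voom, DESeq2, and the fit without set 3 of the wild-type cells on palbociclib, the lowest library of its group.

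BAG3 (ENSG00000151929.10, chr10:119651370-119677819, plus strand), the exchange factor that ties HSPB8 to HSP70, did not move with its partner. Its levels were 67.9, 61.7 and 60.6 CPM on vehicle, 63.9, 64.1 and 59.2 in wild-type cells on palbociclib and 63.1, 67.1 and 65.0 in the knockout. The groups overlapped in all 3 comparisons. The log2 differences were -0.02 ± 0.05 on palbociclib, 0.06 ± 0.05 between knockout and wild-type cells on the drug and 0.04 ± 0.05 between knockout and vehicle. The ratio of HSPB8 to BAG3 transcripts per length moved with HSPB8. It was 0.787 ± 0.0625 on vehicle, 1.49 ± 0.138 in wild-type cells on palbociclib and 1.13 ± 0.102 in the knockout. It reached at most 0.832 in a vehicle library and was at least 1.018 in a palbociclib library.

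CRYAB (ENSG00000109846.9, chr11:111908565-111923722, minus strand) encodes alpha-B-crystallin, a small heat shock protein of lens and muscle that chaperones desmin and other filaments. It had 116.5, 112.7 and 105.1 CPM on vehicle, and 138.9, 137.1 and 119.8 CPM in wild-type cells on palbociclib. In the knockout on palbociclib it had 101.8, 103.9 and 88.0 CPM. Levels were highest in wild-type cells on the drug and lowest in the knockout, without overlap between any pair of groups. The log2 differences were 0.24 ± 0.07 on palbociclib, -0.43 ± 0.07 between knockout and wild-type cells on the drug, and -0.19 ± 0.07 between knockout and vehicle. The gene overlaps HSPB2 and C11orf52 on the opposite strand, both listed at 0, and the strand setting of the counting is not given in the sources used here.

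HSPB1 (ENSG00000106211.10, chr7:76302544-76304295, plus strand), encoding HSP27, is the broadly expressed small heat shock protein and a regulator of actin filaments. Its levels were 801.5, 721.3 and 661.9 CPM on vehicle and 699.6, 670.2 and 653.2 CPM in wild-type cells on palbociclib. Knockout cells on palbociclib had 781.4, 818.4 and 743.5 CPM. The vehicle libraries spread over both other groups, while every knockout library was above every wild-type library on palbociclib. The log2 differences were -0.11 ± 0.06 on palbociclib, 0.21 ± 0.06 between knockout and wild-type cells on the drug, and 0.10 ± 0.06 between knockout and vehicle. With the set number as a block the first and the last of these passed the threshold, and without the block they did not.

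HSPB1 made up most of the small heat shock transcripts, and the ranges of their sum overlapped between all groups. Summed over HSPB1, HSPB3, HSPB6, HSPB7, HSPB8 and CRYAB it was 502.5 ± 47.4 RPKM on vehicle, 495.2 ± 21.9 in wild-type cells on palbociclib and 539.2 ± 28.0 in the knockout. Within the sum the shares differed. HSPB1 supplied 88.7 ± 0.204% on vehicle, 83.4 ± 1.09% in wild-type cells on palbociclib and 88.7 ± 0.576% in the knockout. HSPB8 supplied 3.62 ± 0.143%, 6.86 ± 0.667% and 4.96 ± 0.217% in the same order. CRYAB supplied 7.33 ± 0.326%, 8.78 ± 0.377% and 5.98 ± 0.257%. HSPB7 never reached 1%, with 0.178 ± 0.0311%, 0.609 ± 0.0319% and 0.0171 ± 0.00146%. The share of CRYAB was thus above its vehicle value in wild-type cells on palbociclib and below it in the knockout, whereas that of HSPB8 was above it in both.

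HSPB6 (ENSG00000004776.13, chr19:35754569-35758079, minus strand) encodes HSP20, a small heat shock protein of smooth and cardiac muscle, and was barely expressed. It had 0.658, 0.703 and 0.825 CPM on vehicle, 0.236, 0.566 and 0.4996 in wild-type cells on palbociclib and 0.323, 0.375 and 0.474 in the knockout. These values come from 8 to 30 counts per library. Both palbociclib groups lay below vehicle and overlapped each other. The log2 differences were -0.73 ± 0.32 on palbociclib, -0.16 ± 0.35 between knockout and wild-type cells on the drug and -0.88 ± 0.32 between knockout and vehicle. Set 1 of the wild-type cells on palbociclib, at 0.236 CPM, was far below the other libraries of its group.

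DNAJB1 (ENSG00000132002.9, chr19:14514770-14529770, minus strand) encodes HSP40, the heat-inducible J-domain partner of HSP70. Its levels were 164.8, 178.2 and 187.1 CPM on vehicle, 169.8, 167.8 and 172.8 in wild-type cells on palbociclib, and 181.1, 196.8 and 202.2 in the knockout. The vehicle libraries overlapped both palbociclib groups, and the knockout libraries lay above the wild-type libraries on the drug. The log2 differences were -0.05 ± 0.05, 0.18 ± 0.05 and 0.13 ± 0.05 in the 3 comparisons. DNAJB1 overlaps TECR on the opposite strand, which had 20692 counts against 61881 for DNAJB1.

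**Figure D2:**
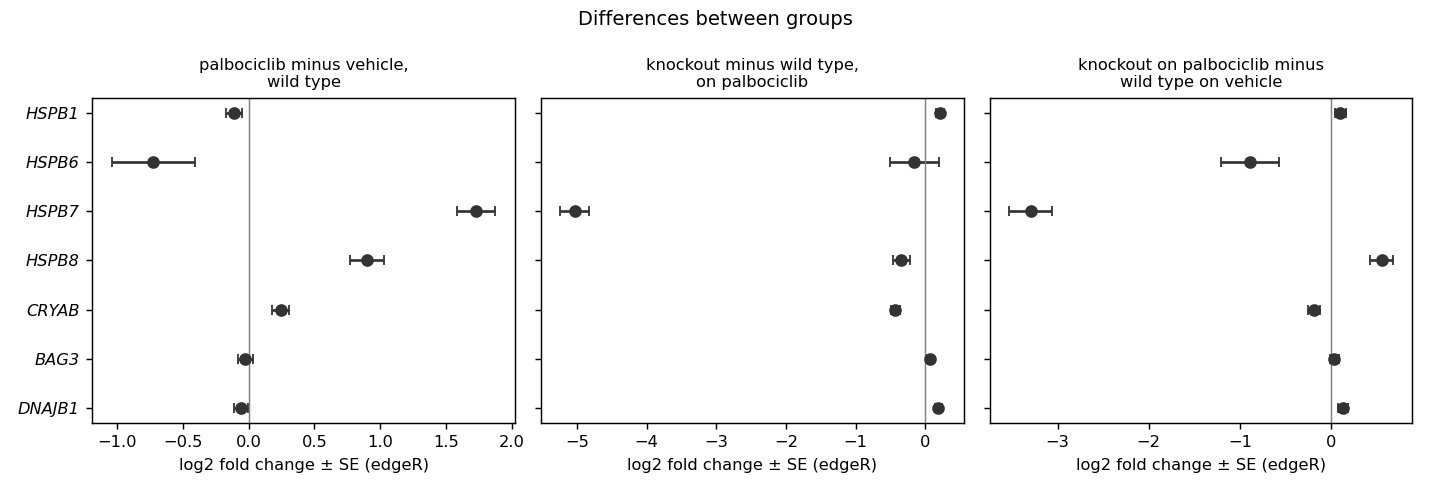
Log2 differences (horizontal axes, which differ in scale between panels) with their standard errors for the 7 genes in the 3 comparisons, from edgeR on all 9 libraries. HSPB7 lies at 1.73 on palbociclib and at -5.03 between knockout and wild-type cells on the drug, while BAG3 lies within 0.06 of 0 in each panel.

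HSPA1A (ENSG00000204389.10, chr6:31815464-31817946) and HSPA1B (ENSG00000204388.7, chr6:31827735-31830255), which encode the stress-inducible HSP70, were listed at 0 in all 9 libraries. HSF1 (ENSG00000185122.11, chr8:144291591-144314722) was listed at 0 or 1, with 3 counts in all. These are not readable as expression levels, since the genes beside them were listed at or near 0 as well. Of the 55 other coding genes within 300 kb of HSPA1A, 52 had under 100 counts over the 9 libraries (94.5%), against 31.9% of the 19855 coding genes listed. An unbroken run of 33 such genes extended from CLIC1 to EGFL8, of which 20 were at 0, between DDAH2 with 1116 counts and AGPAT1 with 1433. Genes that dividing cells use widely were among the neighbours at 0, including DDX39B, an mRNA export helicase, LSM2, a splicing factor subunit, and EHMT2, a histone methyltransferase.

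HSF1 opened a shorter run of 10 coding genes that ended at SLC39A4 and peaked at 18 counts. It was flanked by SCX with 3772 counts and VPS28 with 534. CPSF1, a subunit of the mRNA cleavage machinery, and DGAT1 had 1 count each in this stretch. HSPA1A and HSPA1B are also near-identical: 69.9% of the 100-base windows of the HSPA1A transcript occur in HSPA1B, so reads from them can be assigned to either or to neither. No level, difference or sum is given for these 3 genes. HSPB2, which lies head to head with CRYAB, was listed at 0 too, and no level is read from that.

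**Figure D3:**
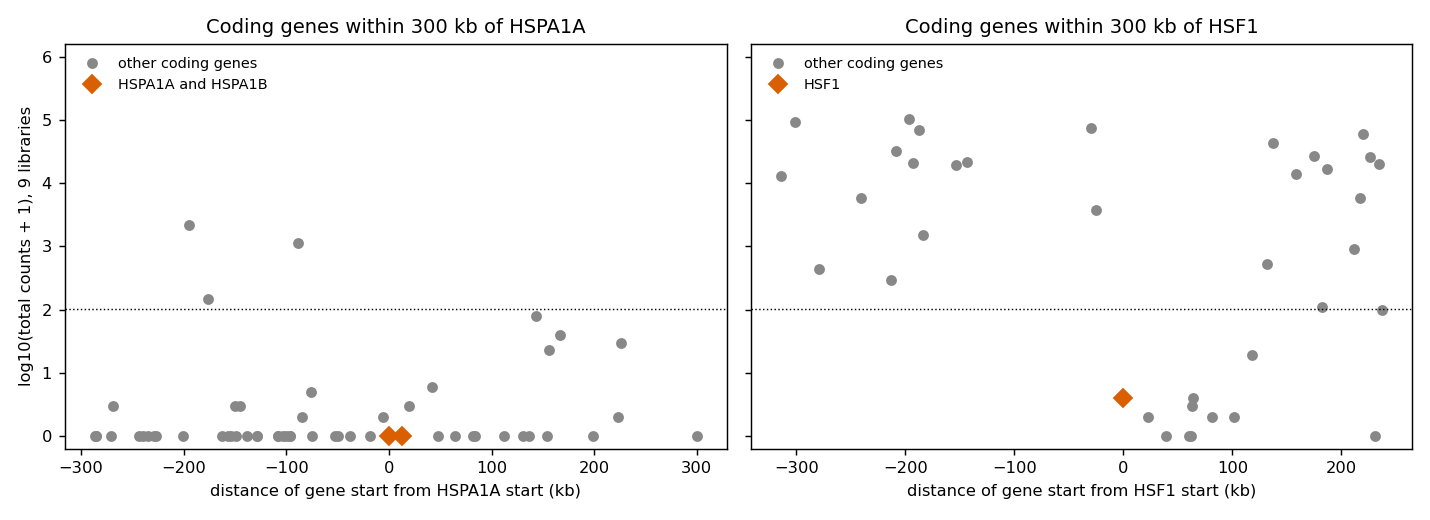
Total counts over the 9 libraries (vertical axis, log10 of counts plus 1) of coding genes by distance of their start from that of HSPA1A (left) or HSF1 (right) in kb, with the described genes in orange and a dotted line at 100 counts. All but 3 of the neighbours of HSPA1A lie below the line, whereas those beside HSF1 that lie below it are all at positive distances.

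Counted together, 3 of the 7 tested genes passed an adjusted p of 0.05 as higher on palbociclib than on vehicle in wild-type cells, namely HSPB7, HSPB8 and CRYAB, where 21.3% of all 19408 genes did (43.7% in either direction). None passed as lower by edgeR, against 22.3% of all genes, with 1 at an unadjusted p under 0.05 and 0 by DESeq2 and by limma-voom. Between knockout and wild-type cells on palbociclib 2 passed as higher, HSPB1 and DNAJB1, and 2 as lower, HSPB7 and CRYAB, against 14.9% and 13% of all genes (27.9% together). Between knockout on palbociclib and vehicle, a comparison that shares libraries with the other two, HSPB8 and DNAJB1 passed as higher and HSPB6, HSPB7 and CRYAB as lower, against 25.7% and 26% (51.7% together). The ranges of the 2 groups did not overlap in 4 of the 7 genes on palbociclib against vehicle, in 5 between knockout and wild-type cells on the drug and in 4 between knockout and vehicle, beside 51.6%, 41.3% and 58.5% of all genes. Nothing is read from these counts, since the same comparisons were in view when the genes were chosen. The medians of the 7 log2 differences were -0.02, -0.16 and 0.04, beside -0.02, 0.01 and -0.01 over all genes tested. CRYAB was the 1 gene that passed in all 3 comparisons beside HSPB7. Leaving out single libraries left 2 to 4 genes past the threshold in the knockout comparison on the drug and 2 to 5 in that with vehicle.

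Several of these calls changed when a single library was left out, which also leaves fewer libraries to test, and those of HSPB7 did not. The same values were in view when the genes were chosen, so a call that held is no further evidence for its difference. HSPB1 passed as lower on palbociclib without set 3 of the vehicle cells, and HSPB6 without set 2 of the wild-type cells on the drug. Between knockout and wild-type cells on palbociclib, HSPB1 did not pass without set 2 or set 3 of the wild-type cells or set 2 of the knockout, and DNAJB1 did not without set 2 of the wild-type cells or set 2 or set 3 of the knockout. Between knockout and vehicle, HSPB6 did not pass without set 2 or set 3 of the vehicle cells or set 1 or set 2 of the knockout. CRYAB did not in that comparison without set 1 or set 2 of the vehicle cells or set 3 of the knockout. DNAJB1 lost its call there without set 1 or set 2 of either wild-type group or set 2 or set 3 of the knockout, and HSPB1 passed without set 1 of the vehicle cells. HSPB8 and CRYAB on palbociclib against vehicle passed whichever library was left out. Over all alternatives the log2 differences behind the lost calls kept their sign: between knockout and wild-type cells on the drug HSPB1 ran from 0.17 to 0.25 and DNAJB1 from 0.15 to 0.23. Between knockout and vehicle HSPB6 ran from -1.06 to -0.76, CRYAB from -0.23 to -0.11 and DNAJB1 from 0.08 to 0.18.

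A difference between the numbered sets was tested as a measure the choice of genes did not use. With the group means removed, HSPB8 differed between sets by 0.32 on the log2 scale from the lowest to the highest set (edgeR quasi-likelihood test with 2 set coefficients, adjusted p = 1.91e-05). CRYAB differed by 0.19 (adjusted p = 0.00235, same edgeR test) and HSPB1 by 0.15 (adjusted p = 0.0338). In each of these 3 genes set 3 lay below the group mean in all 3 groups. HSPB7 had a wider range between sets, 0.44, and did not pass (adjusted p = 0.0636 by edgeR), and DNAJB1 (adjusted p = 0.118), HSPB6 (0.505) and BAG3 (0.547) did not either. Set 3 of HSPB7 and BAG3 was below the mean in all 3 groups, and set 3 of DNAJB1 and HSPB6 above it. Of all genes tested, 8.07% differed between sets, and the count of 3 of 7 dropped to 1 without set 3 of the wild-type cells on palbociclib or without set 3 of the knockout. What the sets are is not given in the labels.

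**Figure D4:**
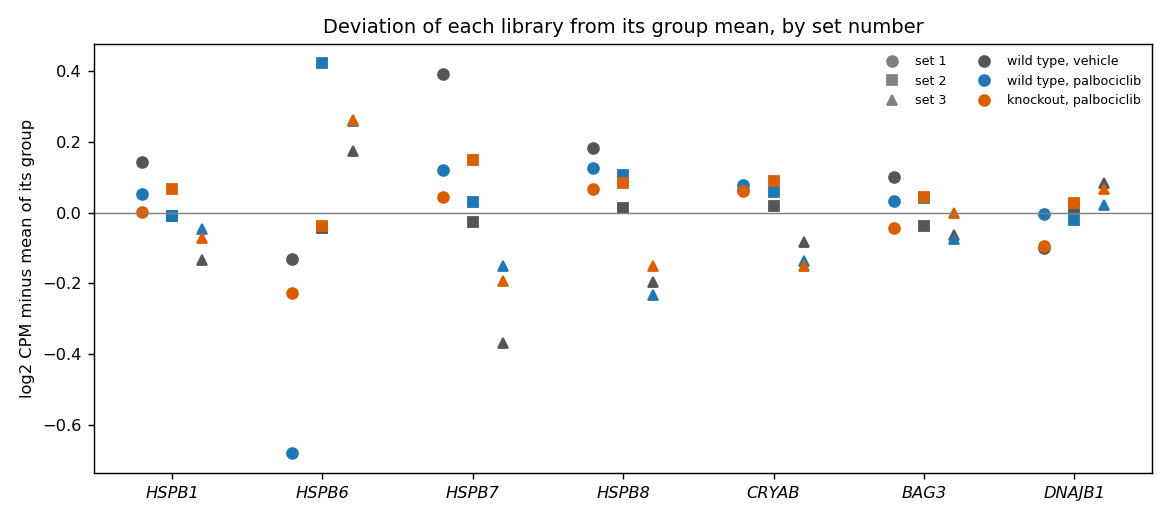
Deviation of each library from the mean of its group (vertical axis, log2 CPM) for the 7 genes, by set number (point shape) and group (colour). The triangles of set 3 lie below 0 in all 3 groups for HSPB1, HSPB7, HSPB8 and CRYAB, and above 0 for DNAJB1 and HSPB6.

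The other genes of the heat shock system were described from lists by role, and of those that passed the threshold in wild-type cells most were lower on palbociclib. Over all lists, 80 of 93 genes were tested, and 15 passed as higher and 35 as lower, where 21.3% and 22.3% of all genes did. Some tested genes had low values, with HYOU1 at 0.667 CPM, BAG6 at 0.372 and SQSTM1 at 2.56 on vehicle. CHORDC1 and DNAJA3 were at 0 in all groups and not tested. BAG6 lies within 300 kb of HSPA1A, among genes listed at or near 0. Whether such values can be read as levels was not tested. Of 28 tested HSF1 targets outside the 10 genes, 3 rose and 18 fell, with a median log2 difference of -0.24 beside -0.02 over all genes. HSP90AA1, the inducible HSP90, fell from 1668 ± 138 to 1110 ± 106 CPM (log2 difference -0.59 ± 0.08, SE; edgeR adjusted p = 6.95e-05). HSPE1, the mitochondrial co-chaperonin HSP10, fell by 0.54 ± 0.05 on the log2 scale (edgeR adjusted p = 5.70e-08). DNAJB2, a J-domain protein that sorts clients to the proteasome, rose from 126.4 ± 14.7 to 223.4 ± 8.20 CPM (0.82 ± 0.07, edgeR adjusted p = 4.19e-07). SERPINH1, the collagen chaperone HSP47, rose by 0.45 ± 0.06 (edgeR adjusted p = 1.40e-05).

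Of 12 HSP70 and HSP110 genes tested, 6 fell and none rose on palbociclib by edgeR, with 0 at an unadjusted p under 0.05 and 0 by DESeq2 and limma-voom. By edgeR 22.3% of all genes tested fell and 21.3% rose. HSPA14, a ribosome-associated HSP70, fell by 0.61 ± 0.07, and HSPA12B, a distant HSP70 relative, fell by 0.45 ± 0.13. HSPA8, the constitutive HSC70 and the most abundant of the family named here, went from 1997 ± 12.6 to 1611 ± 66.4 CPM (-0.31 ± 0.05, edgeR adjusted p = 3.06e-05). Of 20 HSP90 and co-chaperone genes, 12 fell and 3 rose. FKBP5, an HSP90-bound immunophilin, fell by 0.55 ± 0.06, while CDC37, which brings kinases to HSP90, rose by 0.27 ± 0.05 and FKBP8 by 0.32 ± 0.05.

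The J-domain genes were split, with 5 of 12 higher and 4 lower on palbociclib, where 21.3% and 22.3% of all genes were. The same shares stand beside the other counts of this paragraph. DNAJB9, a J-domain protein of the endoplasmic reticulum, rose by 0.66 ± 0.09, and DNAJA4 and DNAJA1 fell by 0.32 ± 0.08 and 0.31 ± 0.05. Of 9 exchange factors, 4 fell, led by GRPEL2 and HSPBP1 at -0.35 each, and 1 rose, the reticulum factor SIL1, at 0.84 ± 0.07 (edgeR adjusted p = 1.01e-08). Among 12 partners of BAG3 and HSPB8 in selective autophagy, 5 rose and 3 fell. SYNPO, an actin-binding protein of the BAG3 complex, rose by 0.69 ± 0.07 and MAP1LC3B, the autophagosome protein LC3B, by 0.61 ± 0.05, while HSPA8 fell by 0.31 ± 0.05. HSF2, the paralog of HSF1, fell by 0.20 ± 0.07 (edgeR adjusted p = 0.0228). Of the 5 HSF-related genes tested edgeR called 1 lower and 0 higher, with 2 higher at an unadjusted p under 0.05, limma-voom called 1 lower and 1 higher, and DESeq2 called 0 lower and 1 higher.

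HSPB3, a muscle small heat shock protein and the only other small heat shock gene that could be tested, was higher on palbociclib in wild-type cells and did not pass between knockout and wild-type cells on the drug. It had 0.481, 0.339 and 0.385 CPM on vehicle, 1.502, 1.27 and 1.13 in wild-type cells on palbociclib, and 2.09, 1.27 and 0.995 in the knockout. The rise on palbociclib was 1.68 ± 0.30 on the log2 scale (edgeR adjusted p = 0.000138). The knockout overlapped wild-type cells on the drug, with a difference of 0.16 ± 0.25 (edgeR adjusted p = 0.677). Whether HSPB3 and HSPB7 differed in this comparison was not tested.

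Between knockout and wild-type cells on palbociclib, 12 of the 80 other genes were higher and 13 lower, where 14.9% and 13% of all genes were. Of the HSF1 targets 5 rose and 4 fell. JMJD6, a lysyl hydroxylase, rose by 0.28 ± 0.06 and FKBP4, an HSP90-bound immunophilin, by 0.24 ± 0.06, beside medians of 0.20 and 0.28 for the genes tested within 5 Mb of each. SERPINH1 fell from 766 ± 44.7 to 508.9 ± 53.3 CPM (-0.59 ± 0.06, edgeR adjusted p = 1.22e-06). CACYBP, a binder of ubiquitin ligases, fell by 0.66 ± 0.05, beside a neighbour median of -0.44 on chromosome 1. In the HSP70 family HSPA12B went from 4.80 ± 0.335 to 1.13 ± 0.275 CPM (-2.08 ± 0.16, edgeR adjusted p = 5.98e-09), beside a neighbour median of -0.57 on chromosome 20. HSPA14 fell by 0.39 ± 0.07 beside a neighbour median of -0.25. HSPA9, the mitochondrial HSP70, rose by 0.39 ± 0.05 beside a neighbour median of 0.33, and HSPA4 by 0.15 ± 0.05 beside 0.26. The neighbours of SERPINH1 had a median of -0.01. What part the neighbourhoods had in these values was not tested.

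The ubiquitin ligase STUB1, which BAG3 and HSPB8 recruit, was higher in the knockout by 0.38 ± 0.06 (edgeR adjusted p = 4.30e-05), beside a neighbour median of 0.23, and FKBP5 was lower by 0.74 ± 0.06 beside -0.23. In the autophagy list MAP1LC3B was lower by 0.44 ± 0.05, at 114.9 ± 3.84 against 155.8 ± 3.56 CPM (edgeR adjusted p = 7.25e-07), and WDFY3, a scaffold of selective autophagy, by 0.26 ± 0.05, both beside neighbour medians of -0.16. Of the J-domain genes DNAJB6 fell by 0.29 ± 0.05 beside a neighbour median of -0.07, and DNAJB14 by 0.27 ± 0.06 beside -0.24. The exchange factors HSPBP1 and SIL1 rose by 0.24 ± 0.06 and 0.22 ± 0.07, beside 0.10 and 0.33. HSF2BP, a binding partner of HSF2, rose by 0.44 ± 0.13 (edgeR adjusted p = 0.0114), beside a neighbour median of 0.23.

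**Figure D5:**
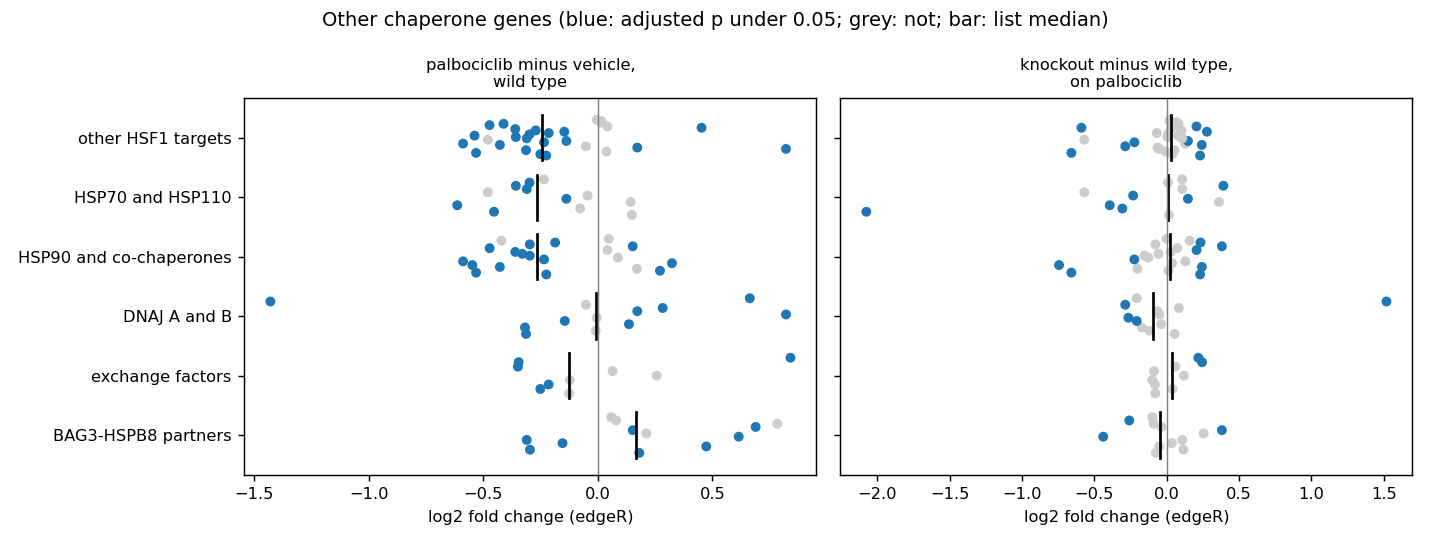
Log2 differences (horizontal axes, which differ in scale) of the other chaperone genes by list, on palbociclib in wild-type cells (left) and between knockout and wild-type cells on the drug (right). Each point is 1 gene, blue where edgeR's adjusted p was under 0.05, and the bar is the list's median, which on the left is -0.24 for HSF1 targets, -0.27 for HSP70 and HSP90 genes and 0.17 for BAG3 and HSPB8 partners. The outlying J-domain point on both sides is DNAJB7, at 0.119 to 0.342 CPM.

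Against vehicle, the knockout on palbociclib had 14 of the 80 genes higher and 36 lower, where 25.7% and 26% of all genes were. HSP90AA1 stood at 1213 ± 110 CPM against 1668 ± 138 (-0.46 ± 0.08, edgeR adjusted p = 0.000383). CACYBP and FKBP5, lower in both other comparisons, were lower here by 1.19 ± 0.05 and 1.29 ± 0.06, and HSPA12B and HSPA14 by 2.53 ± 0.15 and 1.01 ± 0.07. DNAJB2 was higher by 0.77 ± 0.07, SIL1 by 1.06 ± 0.07, SYNPO by 0.65 ± 0.07, STUB1 by 0.53 ± 0.06 and ST13, an HSP70-binding co-chaperone, by 0.25 ± 0.04. This comparison changes genotype and drug together and cannot be split between them.

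The markers of the labelled cell type were present. Of 10 osteoblast and mesenchymal genes 9 reached 1 CPM, including COL1A1, SPARC and VIM, and TWIST1 stayed under 0.1 CPM. Their sum ran from 6003 to 6543 CPM on vehicle, 9232 to 10630 in wild-type cells on palbociclib and 9198 to 11330 in the knockout. COL1A1 and SPARC made up most of that sum, while COL1A2, ALPL and PRRX1 stood at 1.42, 2.78 and 4.56 CPM on vehicle. Between knockout and wild-type cells on the drug RUNX2 and ALPL had -0.40 and -0.66 (edgeR adjusted p = 0.0202 and 0.0016). SPARC and CDH2 had 0.17 and 0.25 (edgeR adjusted p = 0.0252 and 0.00188), and the other genes tested of that list did not pass. The sum of 9 epithelial genes, mostly KRT8 and KRT18, ran from 657 to 690, from 866 to 919 and from 569 to 593 CPM, in the same order of groups as CRYAB and HSPB7. Its part in those results was not tested. Of 8 haematopoietic genes only CD34 reached 1 CPM, with CD3E and HBB at 0, and 3 of 6 endothelial genes did, with a sum of 9.26 to 10.5 CPM over all libraries.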

How the data were processed

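Poly(A) RNA from U2OS cells was sequenced in 9 libraries, and the deposited table holds raw counts per gene, not normalized, with 1 column per library, per the file headers and labels. The submitters' processing notes name STAR 2.7.9a, Trim Galore, FastQC, CASAVA and DESeq2, and the build hg38. Which program counted reads, with which strand setting and gene models, is not given in the sources used here. Symbols were found for 62700 of 70116 IDs and GRCh38 positions (GENCODE 29) for 58261, and IDs without a symbol held at most 0.116% of counts.

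The counts as deposited by the authors were fitted with edgeR 4.0.16 (R 4.3.3): filterByExpr by group, TMM factors of 0.977 to 1.01, and the robust quasi-likelihood F test on all 9 libraries in 3 groups with 6 residual degrees of freedom. P-values were adjusted by Benjamini-Hochberg over all 19408 genes tested. The biological coefficient of variation was 5.99%, and chi-square divided by its degrees of freedom was 3.45 to 10.7 between replicates. A count of 0 allows up to 3 counts, or 0.0705 to 0.0891 CPM by library, for counting error only. The script was tested on simulated counts. limma-voom (limma 3.58.1), DESeq2 1.42.0, other filters and scalings, libraries left out and the set number as a block were alternatives.

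The set numbers come from the labels of each group. Over 12900 genes above a log2 CPM of 1, deviations from the group means correlated by 0.176 to 0.541 between libraries of the same set and by -0.401 to 0.0714 between other libraries. Over all genes tested 6 of the 9 same-set pairs exceeded 0.1.

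The 10 genes and the lists were chosen with earlier results of these data known. In each list and comparison the text names the 2 genes of at least 1 CPM with the largest rise and the 2 with the largest fall among those past adjusted p of 0.05. HSPB7 and HSPB8 had the widest range of group means among those of the 10 genes with a mean of at least 1 CPM. For each of them the text names the 3 genes with the highest Pearson r of log2 CPM. Not every gene that the rule names is reported here. Genes named outside this rule (DNAJB7, HSPA6, HYOU1, BAG6, SQSTM1, CHORDC1, DNAJA3, the marker genes, and neighbours of HSPA1A, HSF1 and HSPB7) were chosen after their values were seen. Promoter sequences are RefSeq's on GRCh38.p14.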

Additional observations from a re-analysis of the deposited data

How the results depend on the processing

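Fitting the set number as a replicate block changed the count of the 7 tested genes past the threshold on palbociclib in wild-type cells from 3 to 5, with HSPB1 and HSPB6 added as lower. The block gave 5 in place of 4 between knockout and wild-type cells on the drug, HSPB8 being added as lower, and 6 in place of 5 between knockout and vehicle, HSPB1 being added as higher. Leaving out 1 library at a time gave 3 to 4, 2 to 4 and 2 to 5 in these comparisons. The lowest count in the second came without set 2 of the wild-type cells on palbociclib or of the knockout, when HSPB1 and DNAJB1 no longer passed. That in the third came without set 2 of the vehicle cells, and 3 remained past the threshold without set 2 or set 3 of the knockout. DESeq2 gave 2 in the third comparison, where HSPB6, CRYAB and DNAJB1 did not pass, and the cause was not tested. The number of genes that differed between sets was 3, and 1 to 3 with 1 library left out. The shares of all genes past the threshold under these alternatives are not given here, so nothing is read from the changes in count.

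HSPB7 passed in every comparison under all 16 alternatives, and no gene that passed changed direction under one. These refits use the same values that were in view when the genes were chosen. They show how far a call depends on the processing, and they do not test the differences themselves. The difference of HSPB6 between knockout and wild-type cells on the drug, which did not pass, ran from -0.44 to 0.07. DNAJB1 between knockout and vehicle lost its call in 9 of 16 alternatives. The counts over the 80 other heat shock genes, 50, 25 and 50, stayed within 1.5 times under every alternative, with 53, 35 and 55 under the block. The planned sum of HSPA1A and HSPA1B gave no value, as both are listed at 0. HSPB6 rests on 8 to 30 counts per library and HSPB7 in the knockout on 13 to 15, which limits their precision.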

Other observations

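HSPB7 was not alone in its stretch of chromosome 1, among 15 coding genes within 300 kb that were looked at after its values were seen. FBLIM1, which encodes filamin-binding LIM protein 1 and starts 257 kb away, went from 4.48 CPM on vehicle to 8.05 in wild-type cells on palbociclib and 0.489 in the knockout. Its log2 differences were 0.85 ± 0.15 on palbociclib (edgeR adjusted p = 0.000138) and -4.00 ± 0.21 between knockout and wild-type cells on the drug (edgeR adjusted p = 4.63e-11). Genes between them moved less: SPEN was lower in the knockout by 0.24 ± 0.06, ZBTB17 by 0.18 ± 0.08 (adjusted p = 0.095, edgeR) and UQCRHL had 0.14 ± 0.08. On the other side EPHA2, a receptor tyrosine kinase whose start is 110 kb away, was lower by 0.62 ± 0.06 (edgeR adjusted p = 2.45e-07).

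The genes whose log2 CPM followed HSPB7 most closely over the 9 libraries, of 14095 compared, were SRGN (Pearson r = 0.994), IGSF8 (0.993) and NLRP5 (0.991). SRGN went from 2.53 ± 0.567 CPM on vehicle to 5.54 ± 1.24 in wild-type cells on palbociclib and 0.678 ± 0.0957 in the knockout. For HSPB8 they were RTN4 (r = 0.995), MAOA (0.989) and PINK1 (0.989), and MAOA stood at 29.3 ± 2.08, 55.2 ± 5.90 and 44.6 ± 3.56 CPM in the same order. These correlations describe 9 libraries that share groups and sets.

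HSPA6, a heat-inducible HSP70 gene, passed the low-count filter where HSPA1A and HSPA1B did not. It stood at 0.768 ± 0.0363, 0.550 ± 0.0605 and 0.376 ± 0.163 CPM in the 3 groups. These are low values, and whether they can be read as levels was not tested. The difference of HSPA6 on palbociclib was -0.48 ± 0.29 (edgeR adjusted p = 0.197), and that between knockout on the drug and vehicle was -1.05 ± 0.31 (edgeR adjusted p = 0.00735). Between knockout and wild-type cells on the drug it had -0.57 ± 0.33 (edgeR adjusted p = 0.216), and the genes tested within 5 Mb of it on chromosome 1 had a median of -0.57. Of 14 immediate early genes tested, which are induced within minutes of handling or growth signals, 6 were higher on palbociclib and 0 lower by edgeR, where 21.3% and 22.3% of all genes were (lower: 1 at an unadjusted p under 0.05, 0 by DESeq2 and 0 by limma-voom). EGR1 went from 25.6 ± 2.05 to 59.6 ± 8.42 CPM (1.22 ± 0.10, edgeR adjusted p = 7.20e-07) and JUNB rose by 0.50 ± 0.08. In the knockout on the drug 5 were lower than in wild-type cells, with NR4A1 at -0.65 ± 0.17 and KLF2 at -0.57 ± 0.17, and 0 were higher by edgeR, where 13% and 14.9% of all genes were (higher: 0 at an unadjusted p under 0.05, 0 by DESeq2 and 0 by limma-voom).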
